A study of Mus musculus with 22 samples.

Results

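Mouse hepatoblastoma tumors, 6 days after their driver YAP1 had been switched off, were compared with the liver of FAH mice. The members were 7 of the 22 samples of the series, 4 day 6 tumors and 3 FAH livers, taken as all RNA samples that carry these labels. The tumors came from 1 mouse of a B6N.FVB(Cg) strain with the transgene Tg(CAG-rtTA3)4288Slowe, which puts the doxycycline-dependent activator rtTA3 under the CAG promoter, and the labels call them hepatoblastoma off doxycycline. The livers were 3 biological replicates from mice with the genotype FAH Delta Exon 5 on NTBC. Their titles also carry the word WT, and the labels name them both liver and FAH +NTBC hepatocyte. The Fah gene encodes the last enzyme of tyrosine breakdown, and NTBC blocks an earlier step of the pathway, which keeps such mice alive. Values are also given for 4 YAP1on tumors, from another mouse of the tumor strain still on doxycycline, and for 3 mice of the genotype FAH Delta Exon 5 with hbHep at days 121, 114 and 117, which by the title of the series are hepatocyte-like cells that arise from the tumors. Neither sex nor age is given in the labels. Strain, Fah genotype, NTBC, doxycycline history and tumor state all change between the day 6 tumors and FAH liver, and they cannot be told apart. Y-linked genes also differed between these groups, as described below, so sex cannot be told apart from the rest either.

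YAP1 is a coactivator that the Hippo kinases hold back. In the nucleus it joins TEAD proteins and switches on genes of growth and of cell shape, and together with activated beta-catenin it drives hepatoblastoma in mice. Normal hepatocytes divide their work along the liver lobule: cells around the central vein, where beta-catenin is active, make glutamine and run many cytochrome P450 reactions, and cells around the portal vein run the urea cycle, gluconeogenesis and amino acid breakdown. The comparison asks which of these programs still separated the tumors from liver after 6 days, and which had passed beyond the level of liver.

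Abundance is the signal that the authors deposited, in a unit read as scaled reads per base, rescaled by median-of-ratios factors of 0.953 to 1.09. It summed to 19610000 to 22650000 before this rescaling in the day 6 tumors and to 31070000 to 42120000 in FAH liver. These are bulk libraries, so fewer cells of a type and less RNA per cell cannot be told apart. The labels do not settle whether the livers were taken as whole tissue or as hepatocytes, which bears on every marker of another cell type below. The 7 libraries fell into their groups: correlations of log2(abundance + 1) across genes were 0.982 to 0.985 among day 6 tumors, 0.969 to 0.972 among FAH livers and 0.847 to 0.869 between the groups. Fold changes are of log2(abundance + 1), day 6 tumor over FAH liver, and understate the change of low genes. Adjusted p-values are those of limma with Benjamini-Hochberg adjustment over all genes tested, and a gene was called at an adjusted p under 0.05. The 4 tumors shared 1 mouse, so these p-values do not measure the spread between tumor mice. They rest on 1 spread per gene, pooled within the 4 groups of all 14 samples, YAP1on tumors and hbHep included. Of 17978 genes tested, 5686 (31.6%) were called higher and 5570 (31%) lower in the day 6 tumors, 62.6% in all, of which 3556 and 2687 changed at least 2-fold. With the tumors of each mouse averaged to 1 sample, 2320 were higher and 2809 lower, and 2319 and 2806 of these had been called the same way before; this setting is called averaged tumors from here on. The median log2 fold change of all genes tested was 0.03, or 0.16 under upper quartile scaling. The 31.6% higher and 31% lower are the shares to set beside the counts of every gene list below.

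The driver was not called against liver. Yap1 (chromosome 9, 7931999 to 8004638 on GRCm38.p6, as are all coordinates here) stood at 1261, 1176, 1175 and 1107 in the day 6 tumors, against 1322, 1148 and 1371 in the FAH livers. The groups overlapped, and the difference was not called (log2 fold change -0.12, SE 0.19, adjusted p = 0.623, exact permutation p = 0.229, two-sided). On the deposited values, with no rescaling, the groups did not overlap and each tumor lay below each liver (exact permutation p = 0.0571), while limma still made no call (adjusted p = 0.324). In the YAP1on tumors Yap1 averaged 8495 ± 2440 (SD, n = 4). Ctnnb1 (chromosome 9, 120933400 to 120960507), which encodes beta-catenin, stood at 11840, 13080, 14330 and 12010 in the day 6 tumors, against 2806, 2445 and 2595 in the FAH livers. Each tumor exceeded each liver (log2 fold change 2.29, SE 0.15, adjusted p = 8.01e-09), and the exact two-sided permutation p of 0.0571 is the smallest that 4 against 3 samples can give. Fah (chromosome 7, 84585159 to 84605942) stood at 5042, 5875, 4381 and 4989 in the day 6 tumors, against 1854, 1583 and 1565 in the FAH livers. It was 3.03-fold higher in the tumors, whose strain label names no Fah allele (log2 fold change 1.6, SE 0.19, adjusted p = 4.10e-06, exact permutation p = 0.0571). The table has no values per exon, so the labelled deletion in the FAH livers was not tested.

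**Figure D1:**
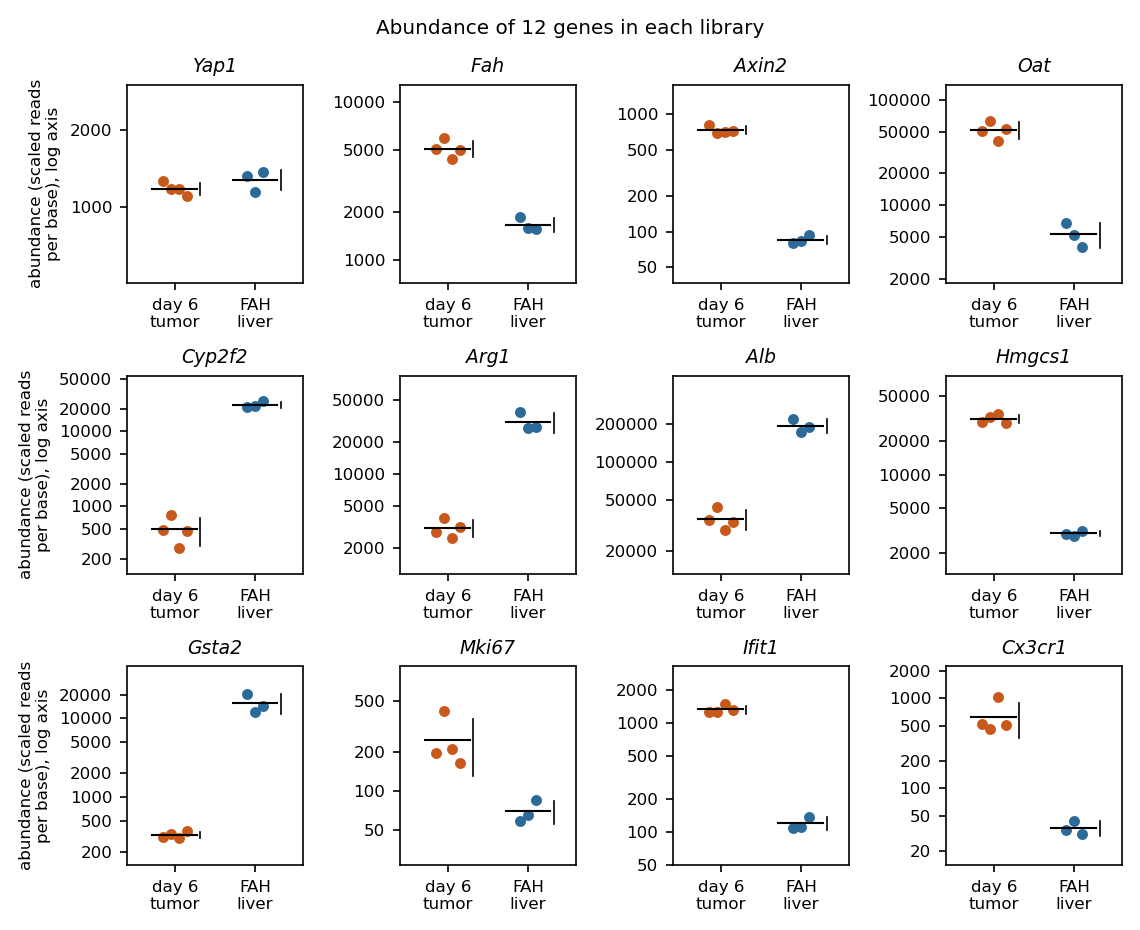
Abundance (scaled reads per base, log axis) of 12 genes in each library, with 4 day 6 tumors in orange on the left and 3 FAH livers in blue on the right of each panel. Horizontal lines are means and vertical lines 1 SD. Yap1 overlaps between the groups on these rescaled values, and the other 11 genes do not.

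The targets of YAP1 did not all follow its level. Of 27 YAP1 target genes tested, 12 were higher than in liver, 4 were lower and 11 were not called, with a median log2 fold change of 0.39 against 0.03 over all genes tested. With averaged tumors 6 were higher and 3 lower. The same median was 1.38 for YAP1on tumors over FAH liver. Ankrd1 (chromosome 19, 36111965 to 36119844), which encodes an ankyrin repeat protein and is widely read as a YAP1 reporter, stood at 187, 47.8, 234 and 104 in the day 6 tumors, against 4.39, 7.51 and 0 in the FAH livers. The tumors spread over a wide range, and the lowest still exceeded the highest liver (log2 fold change 5.1, SE 0.60, adjusted p = 3.46e-06). Ajuba, a LIM protein that binds the Hippo kinase LATS, stood at 769, 569, 808 and 628 in the day 6 tumors, against 161, 108 and 165 in the FAH livers (log2 fold change 2.26, SE 0.24, adjusted p = 1.35e-06). Ptpn14 (log2 fold change 2.52), a phosphatase that restrains YAP1, Tgfb2 (2.4), a TGF-beta ligand, and Ccn1 (1.52), a secreted matrix protein, were also higher. Ccn2, the best known target, stood at 461 against 325 on average in the tumors and FAH liver (log2 fold change 0.49), a call lost with no rescaling, without FAH liver 1 and with averaged tumors, and the YAP1on tumors averaged 2579. Amotl2, an angiomotin that holds YAP1 in the cytoplasm, was lower than in liver at 289, 261, 289.8 and 255 in the day 6 tumors, against 517, 477 and 524 in the FAH livers (log2 fold change -0.88, SE 0.18, adjusted p = 6.72e-04), and so were the growth arrest gene Gadd45a (-1.68) and the growth factor Fgf1 (-1.24).

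Of 20 Hippo pathway components, 11 were higher and 1 lower (median 0.43, and 5 higher and 0 lower with averaged tumors). Among the DNA-binding partners of YAP1, Tead4 stood at 149, 86.6, 137 and 73.2 in the day 6 tumors, against 15.02, 24.02 and 9.84 in the FAH livers (log2 fold change 2.72, SE 0.32, adjusted p = 3.29e-06). Tead1 (1.92) and Tead2 (1.47) were higher too. Wwtr1, which encodes TAZ, the paralog of YAP1, was present at 1429, 1470, 1567 and 1334 in the day 6 tumors, against 706, 584 and 661 in the FAH livers. Its tumor values lay within a narrow band above every liver (log2 fold change 1.16, SE 0.11, adjusted p = 5.47e-07), and the YAP1on tumors averaged 2045. The atypical cadherin Fat1 was higher as well (1.16). Vgll4, a competitor of YAP1 for TEAD, was lower (-0.49). The calls of Tead1, Tead2 and Vgll4 were lost with averaged tumors, and that of Vgll4 also under quantile and upper quartile scaling and without FAH liver 1.

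Most members of a joint list of beta-catenin targets and pericentral genes stood above liver, and most periportal genes below it. The summed abundance of the joint list overlapped between the groups, at 334500 to 455600 in the tumors and 399900 to 601400 in FAH liver. Of 33 beta-catenin target and pericentral genes, 21 were higher in the day 6 tumors, 6 were lower and 6 were not called (median log2 fold change 1.0, and 17 higher and 4 lower with averaged tumors). In 21 of the 33 every tumor exceeded every liver, as in 30.3% of all genes tested. Of 22 periportal genes none was higher, 17 were lower and 5 were not called (median -3.29, and 0 higher and 14 lower with averaged tumors). In 18 of the 22 every tumor was below every liver, as in 31.8% of all genes tested. The same medians for YAP1on tumors over FAH liver were 0.17 and -3.27.

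Axin2 (chromosome 11, 108917828 to 108950783), a feedback inhibitor and direct target of beta-catenin, stood at 817, 696, 710.3 and 726 in the day 6 tumors, against 80.6, 83.5 and 93.3 in the FAH livers. The tumors differed little among themselves and all lay far above liver (log2 fold change 3.09, SE 0.12, adjusted p = 5.90e-11). The receptor Lgr5 (2.96), the ubiquitin ligases Rnf43 (1.73) and Znrf3 (1.67), which take Wnt receptors off the membrane, and the transcription factors Tcf7 (2.6) and Tbx3 (2.27) were higher too. Oat (chromosome 7, 132557475 to 132576398), ornithine aminotransferase of pericentral cells, stood at 50760, 63510, 40320 and 52260 in the day 6 tumors, against 6780, 5245 and 4006 in the FAH livers, a 9.77-fold difference (log2 fold change 3.29, SE 0.28, adjusted p = 1.13e-07). Glul, glutamine synthetase of the innermost pericentral cells, stood at 14050, 21700, 16650 and 18040 in the day 6 tumors, against 5943, 4334 and 4579 in the FAH livers. The YAP1on tumors averaged 6106 for Oat and 4638 for Glul, and hbHep averaged 146000 and 64380. Lhpp, a phosphatase, was at 3526, 3719, 2806 and 3833 in the day 6 tumors, against 507, 396 and 355 in the FAH livers (log2 fold change 3.05, SE 0.19, adjusted p = 6.81e-09). The pericentral P450 enzyme Cyp2e1 was not called (180000 ± 25300 in the day 6 tumors and 138300 ± 29900 in FAH liver, SD, n = 4 and 3), though it was called higher under quantile normalization. The lower members included Cyp2a5 (-4.13), Cyp2c29 (-2.07), the retinal dehydrogenase Aldh1a1 (-1.95) and Cyp1a2 (-1.31).

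Among periportal genes, Etnppl (chromosome 3, 130617448 to 130635750), a phospholyase of ethanolamine phosphate, stood at 203, 207, 92.5 and 178 in the day 6 tumors, against 15000, 10540 and 10410 in the FAH livers (log2 fold change -6.18, SE 0.33, adjusted p = 1.12e-09). Cyp2f2 (chromosome 7, 27119955 to 27133660), the classical periportal P450, stood at 479, 761, 274 and 468 in the day 6 tumors, against 21470, 21610 and 25380 in the FAH livers. The highest tumor reached 761 and the lowest liver 21470, and tumor 3 was the lowest in both genes. Serine breakdown by Sds (-4.85) and its paralog Sdsl (-4.93), and the steroid dehydrogenase Hsd17b6 (-4.86), were lower by similar amounts. Hal, which breaks down histidine, was at 751 against 6713 on average in the tumors and in FAH liver (-3.22). The 5 members without a call were the adhesion molecule Cdh1, the hormone Igf1, the antibody carrier Pigr, the protease Ctsc and the gluconeogenic Pck1; Igf1 was called higher under quantile normalization, and Ctsc and Pck1 lower with no rescaling or with only the groups compared in the fit.

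**Figure D2:**
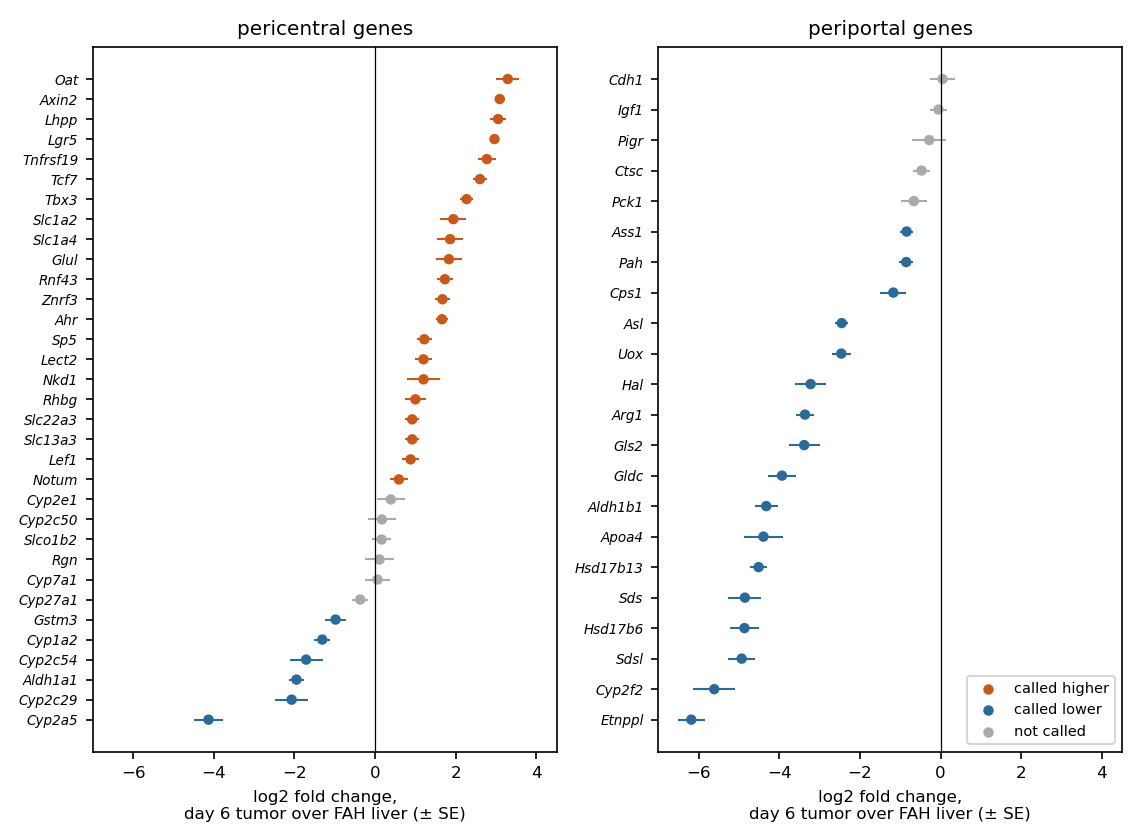
Log2 fold change (day 6 tumor over FAH liver, ± SE, limma) of 33 pericentral and beta-catenin target genes on the left and 22 periportal genes on the right. The 21 genes called higher are orange, the 6 and 17 called lower are blue, and no periportal gene is called higher.

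The urea cycle, which turns ammonia into urea in periportal cells, was lower at every enzyme named here. Of 15 genes of urea synthesis and ammonia handling, 3 were higher (Glul, Oat and the ammonium channel Rhbg), 11 lower and 1 not called (median -0.85, and 3 higher and 6 lower with averaged tumors). Arg1 (chromosome 10, 24915207 to 24927470), arginase, which releases urea, stood at 2830, 3780, 2470 and 3165 in the day 6 tumors, against 39100, 27110 and 27980 in the FAH livers (log2 fold change -3.36, SE 0.23, adjusted p = 1.62e-08). Cps1 (log2 fold change -1.17), Otc (-1.91), Ass1 (-0.84) and Asl (-2.45), the enzymes before it in the cycle, were lower, as was Gls2 (-3.38), the liver glutaminase. The calls of Cps1 and Ass1 were lost with averaged tumors or quantile normalization. Mean Cps1 was 130000 at day 6 and 41370 in the YAP1on tumors, and mean Arg1 was 3062 and 1966.

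Most genes of plasma proteins were lower or not called. Of 35 secreted hepatocyte proteins, 2 were higher, 16 lower and 17 not called (median -0.58, or 0.27 under quantile normalization, and 1 higher and 9 lower with averaged tumors). Alb (chromosome 5, 90460870 to 90476602), albumin, stood at 35290, 44560, 28930 and 33480 in the day 6 tumors, against 217900, 171800 and 190100 in the FAH livers. The lowest liver had more than any tumor by a wide margin (log2 fold change -2.45, SE 0.28, adjusted p = 2.21e-06), and the YAP1on tumors averaged 47890. The thyroxine carrier Ttr (-2.61), the lipase cofactor Apoc2 (-3.8) and the lipid carrier Apoe (-2.44) were lower by similar or larger amounts. Transferrin (Trf, -0.61) and fibrinogen alpha (Fga, 0.19) were not called, though Trf was called lower with no trend and Fga higher, at 1.09, under quantile normalization. The retinol carrier Rbp4 was higher, at 47400, 44430, 41830 and 49790 in the day 6 tumors, against 23350, 22210 and 27570 in the FAH livers (log2 fold change 0.91, SE 0.21, adjusted p = 0.0013). Serpina1e, the other higher member, belongs to a family of near-identical genes that differ between strains, and its value for a single copy is uncertain. The calls of Apoe and Rbp4 were lost with averaged tumors.

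Most genes of drug metabolism were lower. Of 44 cytochrome P450 and drug metabolism genes, 5 were higher, 31 lower and 8 not called (median -1.58, and 5 higher and 22 lower with averaged tumors). Among the higher members was Cyp2b9 (log2 fold change 11.01), which is also in the female-biased list described below. The limit given there on sex and strain holds for this list too. Cyp2b10, the classical target of the receptor CAR, stood at 7.29, 14.1, 3.85 and 12.6 in the day 6 tumors, against 617, 500.2 and 480 in the FAH livers (log2 fold change -5.8, SE 0.50, adjusted p = 1.36e-07). Nr1i3, which encodes CAR, was at 590.5, 851, 438 and 796 in the day 6 tumors, against 9072, 5861 and 7503 in the FAH livers (log2 fold change -3.51, SE 0.30, adjusted p = 1.31e-07). Hepatocyte transcription factors as a list were closer to liver: 5 of 25 were higher, 10 lower and 10 not called (median -0.24, or 0.16 under quantile normalization, and 2 higher and 8 lower with averaged tumors). Closer here refers to the median, against -1.58 for the drug metabolism list. Over all genes tested 31.6% were higher and 31% lower. The lower transcription factors included Cebpa (-2.11) and Cebpb (-2.53), C/EBP factors of mature hepatocytes, and the mitochondrial regulator Esrra (-2.1). The nuclear receptor Hnf4a stood at 2536, 2881, 2455 and 2231 in the day 6 tumors, against 3361, 2538 and 3080 in the FAH livers. The groups overlapped and it was not called (log2 fold change -0.24, SE 0.17, adjusted p = 0.24). Onecut2 (0.99), a factor of biliary and immature cells, and Nfia (1.28) were higher. The calls of Onecut2 and Nfia were lost with averaged tumors.

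Of 25 bile acid genes, 2 were higher and 16 lower (median -1.15, and 1 higher and 12 lower with averaged tumors). The rate-limiting enzyme Cyp7a1 overlapped with liver, at 7867, 4577, 10620 and 7250 in the day 6 tumors, against 8323, 7386 and 5456 in the FAH livers. No call was made (log2 fold change 0.06, SE 0.32, adjusted p = 0.879). Cyp7b1 (-5.43), of the alternative pathway, and Cyp8b1 (-2.22), which makes cholic acid, were lower. The uptake carriers Slco1a1 (-4.91) and Slco1a4 (3.38) stood on opposite sides of liver. The limit on sex and strain, given with the Y-linked genes below, holds for these bile acid genes, and the part of sex was not tested. Of 13 genes of tyrosine and phenylalanine breakdown, 10 were lower and Fah alone was higher (median -0.61, or 0.09 under quantile normalization, and 1 higher and 3 lower with averaged tumors). The livers are labelled FAH Delta Exon 5 and on NTBC, and the part of either in this list was not tested. Of 18 gluconeogenesis and glycogen genes 11 were lower (median -1.07, and 0 higher and 9 lower with averaged tumors), among them the glycogen synthase Gys2 (-2.5) and Fbp1 (-1.88). The gate enzymes G6pc (0.52) and Pck1 (-0.66) were not called. G6pc and Cyp7a1 were called higher under quantile normalization, and G6pc also without FAH liver 3 and Pck1 lower without FAH liver 2.

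Of 23 genes of fatty acid oxidation and ketogenesis, 2 were higher and 15 lower (median -0.98, and 2 higher and 10 lower with averaged tumors). Acaa1b (-2.67) and Acadm (-2.0), enzymes of peroxisomal and mitochondrial oxidation, were lower, and the gate enzyme Cpt1a (-0.05) was not called, but stood at 0.46 and was called higher under quantile normalization. Pdk4, the kinase that shuts pyruvate out of mitochondria in fasting, stood at 313, 248, 249 and 245 in the day 6 tumors, against 12.3, 9.81 and 21.7 in the FAH livers (log2 fold change 4.15, SE 0.34, adjusted p = 9.30e-08). Among 20 glycolysis and glutamine genes 9 were higher and 8 lower (median 0.36, or -0.23 with a filter at 100, and 3 higher and 4 lower with averaged tumors). The higher ones included isozymes of growing cells, Hk2 (1.13), and Pkm (0.9), and the glutamine carrier Slc1a5 (3.45). Hk2 was low in both groups (52.8 against 23.1 on average in the tumors and FAH liver). The calls of Hk2 and Pkm were lost with averaged tumors, and that of Hk2 also under quantile normalization.

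Most genes of cholesterol synthesis stood above liver. Of 24 genes, 18 were higher, 1 lower and 5 not called (median log2 fold change 1.0, and 12 higher and 0 lower with averaged tumors). The median was -0.19 for YAP1on tumors over FAH liver. Hmgcs1 (chromosome 13, 119690351 to 119708260), which makes HMG-CoA, stood at 29780, 32800, 35010 and 28910 in the day 6 tumors, against 2961, 2840 and 3148 in the FAH livers, a 10.6-fold difference (log2 fold change 3.4, SE 0.23, adjusted p = 1.04e-08). The livers lay close together and far below each tumor. Sqle (chromosome 15, 59315092 to 59331193), squalene epoxidase, stood at 5475, 6013, 6189 and 5354 in the day 6 tumors, against 801, 982 and 914 in the FAH livers (log2 fold change 2.68, SE 0.16, adjusted p = 4.25e-09). Idi1 (2.2) and Fdps (2.15), which build the isoprenoid chain, were higher too, and the YAP1on tumors averaged 1063 for Idi1 and 2936 for Fdps. Srebf2, the transcription factor of the pathway, was at 2581 against 882 on average in the tumors and FAH liver (1.56). Ebp (-0.55), a late isomerase, was the lower member (0.02 under quantile normalization). The call of Ebp was lost with averaged tumors, under upper quartile scaling, and without FAH liver 1 or day 6 tumor 3.

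The promoters of this pathway share a short motif. RefSeq promoters on GRCm38.p6 were found for 16 of the 24 genes, and the 250 bases before the start held the CCAAT box (CCAAT, searched on both strands) in all 16, against 37.5% of the 27025 genes with a promoter there. The sterol element TCACNCCAC, on both strands, was found in 1 of 16, Hmgcs1, against 1.22% of all genes. Below are the bases just before the start of Hmgcs1 (chr13:119690111-119690350 on the plus strand), Idi1 (chr13:8885486-8885605 on the plus strand) and Sc5d (chr9:42264301-42264420 on the minus strand), shown as the member with the largest difference, one called by a wide margin and one that overshot liver. Capitals mark CCAAT boxes, which read ATTGG where they lie on the other strand, and the sterol element of Hmgcs1. A match describes the letters and does not show that a factor binds. Of the 16 genes 13 were called higher, and a link of the CCAAT box to the calls was not tested.
Hmgcs1: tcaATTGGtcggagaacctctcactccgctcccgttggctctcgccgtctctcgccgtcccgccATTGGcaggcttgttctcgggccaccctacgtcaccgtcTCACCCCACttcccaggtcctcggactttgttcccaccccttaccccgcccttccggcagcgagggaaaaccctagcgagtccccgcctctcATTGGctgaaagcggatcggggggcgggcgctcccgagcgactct
Idi1: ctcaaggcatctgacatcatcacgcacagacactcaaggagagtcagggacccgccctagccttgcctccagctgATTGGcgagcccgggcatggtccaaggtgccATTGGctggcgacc
Sc5d: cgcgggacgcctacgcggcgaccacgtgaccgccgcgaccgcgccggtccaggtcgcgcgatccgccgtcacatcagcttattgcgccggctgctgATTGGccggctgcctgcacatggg

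Of 18 fatty acid synthesis genes 8 were higher and 6 lower (median 0.36, and 2 higher and 5 lower with averaged tumors). Fasn, fatty acid synthase, stood at 2947, 3989, 2995 and 2546 in the day 6 tumors, against 1223, 1845 and 2007 in the FAH livers (log2 fold change 0.89, SE 0.26, adjusted p = 0.00818), and its lowest tumor exceeded the highest liver. The desaturase Fads1 (1.54) and the lipase-like Pnpla3 (5.23) were higher, the second at 97.9, 87.2, 106 and 70.1 in the day 6 tumors, against 3.06, 2.44 and 0 in the FAH livers. Thrsp (-3.8), which follows carbohydrate feeding, and Srebf1 (-1.32), the transcription factor of the pathway, were lower. The call of Fasn was lost with averaged tumors and without FAH liver 1.

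Most genes of cell division could not be told from liver. Of 28 G2/M and mitosis genes, 18 were not called, 9 were higher and 1 lower (median log2 fold change 0.21, or -0.14 under quantile normalization, and 1 higher and 0 lower with averaged tumors). The median was 2.95 for YAP1on tumors over FAH liver. Mki67 (chromosome 7, 135689784 to 135716450), a marker of cycling cells, stood at 195, 416, 211 and 163 in the day 6 tumors, against 59.2, 65.1 and 85.8 in the FAH livers. Tumor 2 was the highest, and all 4 exceeded the livers (log2 fold change 1.72, SE 0.28, adjusted p = 8.98e-05). The YAP1on tumors averaged 1976. Ccnb1, the mitotic cyclin, overlapped between the groups with 18.4, 37.1, 18.8 and 28.04 in the day 6 tumors, against 14.4, 29.3 and 24.1 in the FAH livers (log2 fold change 0.17, SE 0.30, adjusted p = 0.638). Cdc20, which starts anaphase, was lower than in liver, at 11.6, 18.4, 6.86 and 15.2 in the day 6 tumors, against 22.4, 26.7 and 24.2 in the FAH livers (log2 fold change -0.94, SE 0.30, adjusted p = 0.013). Of 30 S phase genes 5 were higher and 10 lower (median -0.27, and 3 higher and 4 lower with averaged tumors). The shares over all genes tested were 31.6% higher and 31% lower. Near these lay the share of G2/M genes called higher and that of S phase genes called lower. Mcm10 (-4.83), a replication initiation factor, Ccne1 (-3.14), the cyclin of S phase entry, and Chaf1a (-2.18), a histone chaperone, were lower. E2f8, an atypical E2F repressor of hepatocytes, was higher with 2370, 2032, 1857 and 2296 in the day 6 tumors, against 376, 360.1 and 365 in the FAH livers (log2 fold change 2.53, SE 0.17, adjusted p = 9.93e-09). The call of Cdc20 was lost with averaged tumors.

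Of 26 p53 targets and cell cycle inhibitors, 11 were higher and 9 lower (median 0.26, and 8 higher and 2 lower with averaged tumors). Among all genes tested 31.6% were higher and 31% lower. Cdkn1a (chromosome 17, 29090979 to 29100722), the inhibitor p21, stood at 372, 317, 507 and 348 in the day 6 tumors, against 29.6, 32.9 and 47.5 in the FAH livers (log2 fold change 3.37, SE 0.36, adjusted p = 1.20e-06), and the YAP1on tumors averaged 806. The antiproliferative gene Btg2 (2.39) and the inhibitors Cdkn2b (2.21) and Cdkn2a (2.59) were higher, the last at a low level (14.1 against 1.47 on average in the tumors and FAH liver). Gadd45a (-1.68), Eda2r (-1.55) and Sesn2 (-0.99), other p53 targets, were lower, the call of Sesn2 being lost with averaged tumors.

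Many immature and biliary genes stood above liver. Of 24 bile duct and progenitor genes 15 were higher and 2 lower (median 1.71, and 13 higher and 1 lower with averaged tumors). The median was 2.85 for YAP1on tumors over FAH liver. Lcn2 (chromosome 2, 32384637 to 32387739), which encodes lipocalin 2, stood at 3232, 3146, 5188 and 3080 in the day 6 tumors, against 38.5, 35.3 and 51.5 in the FAH livers. Tumor 3 was highest, and the difference of 84.6-fold was the largest among the called members of this list (log2 fold change 6.4, SE 0.19, adjusted p = 1.49e-12). Prom1 (3.88), a progenitor surface protein, Cd44 (3.68), a hyaluronan receptor, and Sox9 (2.43), the factor of bile duct fate, were higher. The keratins of mature bile ducts, Krt7 and Krt19, were low in both groups and not called: Krt19 stood at 21.03, 22.99, 26.3 and 14.3 in the day 6 tumors, against 17.9, 17.5 and 10.7 in the FAH livers. Krt7 was called higher without FAH liver 2. Krt23 (-3.46) was lower. Of 19 fetal liver and hepatoblastoma genes 8 were higher and 3 lower (median 0.73, and 5 higher and 1 lower with averaged tumors). For the fetal list too, the shares over all genes tested were 31.6% higher and 31% lower. Peg10 (3.51), an imprinted gene, and Gpc3 (2.61), a glypican used as a marker of hepatoblastoma, were higher. Afp, alpha-fetoprotein, the serum marker of human hepatoblastoma, was lower, at 47.3, 46.8, 45.6 and 48.4 in the day 6 tumors, against 171, 122 and 137 in the FAH livers. Each tumor lay below each liver. The spread used by the fit also comes from hbHep, where Afp ranged from 982 to 19090. The imprinted genes Peg3 (-2.8) and Ndn (-2.14) were lower and Igf2 (0.73) was not called. The call of Afp (adjusted p = 0.0401, limma) did not survive leaving out any 1 of the 7 libraries, and those of Afp and Peg3 were lost with averaged tumors.

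Most redox genes were lower. Of 23 NRF2 target and redox genes 1 was higher, 16 were lower and 6 were not called (median log2 fold change -1.12, and 0 higher and 15 lower with averaged tumors). NRF2 is the transcription factor of the response to oxidants and electrophiles. Gsta2, a glutathione transferase, stood at 314, 341, 305 and 376 in the day 6 tumors, against 20590, 12060 and 14320 in the FAH livers (log2 fold change -5.52, SE 0.39, adjusted p = 1.90e-08), and its near-identical neighbor Gsta1 (-9.6) differed more; reads of such pairs are shared by estimation. Gclc, which starts glutathione synthesis, stood at 817, 982, 726 and 795 in the day 6 tumors, against 8184, 4098 and 4886 in the FAH livers (log2 fold change -2.73, SE 0.41, adjusted p = 3.86e-05). Nqo1, a quinone reductase, was at 462, 488, 479 and 604 in the day 6 tumors, against 2527, 1402 and 1849 in the FAH livers (log2 fold change -1.89, SE 0.31, adjusted p = 8.46e-05). FAH liver 1 was the highest library in all 3 genes. Gstp1 (-4.0) and Cbr3 (-4.6) were lower too, and Nfe2l2 (0.55), which encodes NRF2 itself, was the higher member, a call lost with averaged tumors. The hbHep mice, of the same genotype as the livers, averaged 6035 for Gclc and 2886 for Nqo1, and the YAP1on tumors 828 and 496. The part of the FAH genotype in these values was not tested.

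Of 24 genes of ER stress and ATF4, 3 were higher and 14 lower (median -0.61, and 1 higher and 7 lower with averaged tumors). Asns (-4.13), asparagine synthetase, and the chaperone partners Creld2 (-1.73) and Dnajc3 (-1.14) were lower. Atf3 (3.08), an early stress factor, and the serine synthesis enzymes Phgdh (1.85) and Psat1 (1.58) were higher. Of 26 cell death genes 13 were higher and 5 lower (median 0.33, and 10 higher and 1 lower with averaged tumors). Mlkl (chromosome 8, 111311255 to 111338479), which executes necroptosis, stood at 419, 400.2, 414 and 419 in the day 6 tumors, against 115, 81.2 and 99.7 in the FAH livers. Its tumor values hardly differed among themselves (log2 fold change 2.07, SE 0.14, adjusted p = 1.07e-08). The inflammatory caspases Casp1 (2.47), Casp4 (1.92) and Casp12 (3.91) and the cytokine Tnf (4.01) were higher. Of 30 autophagy and lysosome genes 6 were higher and 14 lower (median -0.37, or 0.05 under quantile normalization, and 1 higher and 7 lower with averaged tumors), with Gabarapl1 (-1.88) and Map1lc3a (-1.4), of the autophagosome membrane, among the lower ones. Acute phase genes split into 6 higher and 6 lower of 25 (median 0.28, and 3 higher and 4 lower with averaged tumors): Saa2 (2.8) and Il1rn (3.12) were higher, Orm1 (-2.25) and Hamp (-2.3), the hormone of iron control, lower. For the acute phase counts, the shares over all genes tested were 31.6% higher and 31% lower. With averaged tumors the calls of Phgdh, Psat1 and Saa2 were lost.

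Interferon response genes were higher in nearly every case. Of 30 tested 28 were higher and none was lower (median log2 fold change 2.77, and 22 higher and 0 lower with averaged tumors), and in 29 of them every tumor exceeded every liver, against 30.3% of all genes tested. Ifit1 (chromosome 19, 34640889 to 34650009), an antiviral protein that binds foreign RNA, stood at 1261, 1244, 1487 and 1305 in the day 6 tumors, against 110, 111 and 139 in the FAH livers (log2 fold change 3.46, SE 0.24, adjusted p = 1.68e-08). Rsad2 (chromosome 12, 26442743 to 26456452), viperin, stood at 1622, 1491, 2056 and 1739 in the day 6 tumors, against 110, 65.3 and 132 in the FAH livers (log2 fold change 4.11, SE 0.34, adjusted p = 1.05e-07). The tumors lay within a narrow range in both genes. Oas1a (4.26) and Oas2 (4.21), sensors of double-stranded RNA, and Cxcl9 (4.38), a chemokine that draws T cells, were higher. Over the members, the median log2 difference from the FAH liver mean was 2.71, 2.71, 2.83 and 2.73 in the 4 tumors, and 0.15, -0.17 and 0.06 in the livers. YAP1on tumors averaged 858 for Ifit1 and 804 for Rsad2, and hbHep 655 and 894. Iigp1, the most abundant member, had 12860, 14040, 12530 and 12960 in the day 6 tumors, against 8325, 5481 and 5153 in the FAH livers, a call lost with averaged tumors.

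Many promoters of this list hold the interferon-stimulated response element. RefSeq promoters were found for 21 of 30 members, and 12 of these (57.1%) held GAAA, any 2 bases and GAAA again, on either strand, in the 250 bases before the start, against 3.46% of all 27025 genes. Of the 21, 19 were called higher, and 10 of the 19 held the element. A link of the element to the calls was not tested. Shown are 4 members with large differences, Ifit1 (chr19:34640729-34640888 on the plus strand), Ifit3 (chr19:34583369-34583528 on the plus strand), Rsad2 (chr12:26456453-26456612 on the minus strand) and Oas1a (chr5:120907526-120907685 on the minus strand). Capitals mark the element, which shows TTTC in place of GAAA where it lies on the other strand; in Oas1a a pair of matches overlaps.
Ifit1: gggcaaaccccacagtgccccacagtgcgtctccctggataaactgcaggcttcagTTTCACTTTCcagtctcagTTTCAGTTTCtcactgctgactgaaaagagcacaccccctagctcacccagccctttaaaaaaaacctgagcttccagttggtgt
Ifit3: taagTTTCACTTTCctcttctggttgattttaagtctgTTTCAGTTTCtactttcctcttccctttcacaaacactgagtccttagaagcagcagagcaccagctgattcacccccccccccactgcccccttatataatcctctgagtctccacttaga
Rsad2: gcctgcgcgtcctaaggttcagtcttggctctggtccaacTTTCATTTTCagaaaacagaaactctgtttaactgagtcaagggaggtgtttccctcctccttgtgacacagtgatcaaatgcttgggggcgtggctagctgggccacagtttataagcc
Oas1a: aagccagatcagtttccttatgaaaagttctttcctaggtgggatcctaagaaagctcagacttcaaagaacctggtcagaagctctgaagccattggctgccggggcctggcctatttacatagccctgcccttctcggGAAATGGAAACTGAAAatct

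Antigen presentation genes were higher in 18 of 19 cases and lower in none (median 1.23, and 11 higher and 0 lower with averaged tumors). The class II chain H2-Aa stood at 3320, 3601, 5847 and 4337 in the day 6 tumors, against 1175, 574 and 619.5 in the FAH livers (log2 fold change 2.48, SE 0.34, adjusted p = 1.46e-05), and the class I gene H2-Q7 (3.57), whose copies differ between strains, was higher as well, while B2m (-0.14) was not called (0.64 and called higher under quantile normalization). Immune cell markers were higher as well. These lists also stood above liver in the YAP1on tumors. Their medians for YAP1on tumors over FAH liver were 2.47 (macrophage and Kupffer cell), 1.42 (T, NK and B cell) and 3.27 (neutrophil). For antigen presentation genes it was 1.56. Of 23 macrophage and Kupffer cell markers 18 were higher and 1 lower (median 1.79, and 10 higher and 1 lower with averaged tumors). Cx3cr1 (chromosome 9, 120048683 to 120068296), a receptor of monocyte-derived macrophages, stood at 523, 459.6, 1029 and 503 in the day 6 tumors, against 34.9, 43.9 and 31.1 in the FAH livers. Tumor 3 was the highest, and every tumor exceeded every liver (log2 fold change 4.0, SE 0.26, adjusted p = 1.00e-08). Lyz2 (3.09) and the Fc receptor Fcgr1 (3.31) were higher. Clec4f and Timd4, which mark resident Kupffer cells, overlapped between the groups: Clec4f stood at 1721, 2699, 1316 and 2104 in the day 6 tumors, against 2194, 1047 and 1347 in the FAH livers (log2 fold change 0.38, SE 0.36, adjusted p = 0.375). Clec4f is also among 6 macrophage or Kupffer cell markers used to check cell types, of which 5 were called higher and 0 lower. The 5 include further Kupffer cell markers, so the overlap of Clec4f and Timd4 does not hold for such markers in general. Cd163, a scavenger receptor for hemoglobin, was lower, at 90.3, 99.5, 62 and 81.7 in the day 6 tumors, against 828, 547 and 693 in the FAH livers (log2 fold change -3.03, SE 0.36, adjusted p = 3.81e-06).

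Of 21 T, NK and B cell markers 20 were higher and none lower (median 2.28, and 12 higher and 0 lower with averaged tumors). Cd3e, a chain of the T cell receptor complex, stood at 53.6, 65.01, 131 and 66.8 in the day 6 tumors, against 4.41, 12.3 and 5.25 in the FAH livers, and tumor 3 was again the highest. Nkg7 (4.16), of cytotoxic granules, and Cd8b1 (2.99) were higher. Of 16 neutrophil markers 15 were higher and 1 lower (median 3.16, and 10 higher and 0 lower with averaged tumors). S100a8, a calcium-binding protein of neutrophils, stood at 382, 688, 202 and 381 in the day 6 tumors, against 23.6, 16.4 and 9.36 in the FAH livers (log2 fold change 4.53, SE 0.48, adjusted p = 1.29e-06). The granule genes of immature neutrophils followed: Ngp stood at 403, 1014, 255 and 291 in the day 6 tumors, against 1.38, 5.83 and 3.06 in the FAH livers, and Elane at 87.2, 194, 32.9 and 47.9 in the day 6 tumors, against 2.75, 2.92 and 0 in the FAH livers. Tumor 2 was the highest library in all 3 genes. The lower member, Wfdc21 (-2.36), is also expressed by hepatocytes, and its call was lost with averaged tumors, under quantile normalization, with no filter, and without day 6 tumor 3 or FAH liver 1. The levels of most of these markers were low, with summed abundance of the 5 T, NK and B cell markers used to check cell types of 378 to 549 in the tumors and 72.8 to 82.9 in FAH liver.

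Most matrix genes were higher, and endothelial genes stood on both sides of liver. The medians for YAP1on tumors over FAH liver were 2.19 for the matrix list and -0.39 for the endothelial list. Of 28 stellate cell, fibroblast and matrix genes 20 were higher and none lower (median 1.29, and 14 higher and 0 lower with averaged tumors). Col1a1 (chromosome 11, 94936224 to 94953042), the main collagen of scars, stood at 92.4, 172, 119.9 and 80.6 in the day 6 tumors, against 8.37, 10.8 and 11.5 in the FAH livers (log2 fold change 3.34, SE 0.35, adjusted p = 1.04e-06). The protease Mmp14 (3.1) and the collagen crosslinker Lox (2.91) were higher. The markers of resting stellate cells, Lrat (0.59) and Reln (-0.59), were not called, though Reln was called lower with no rescaling or without day 6 tumor 2, and Lrat higher with only the groups compared in the fit. Of 25 endothelial markers 6 were higher and 8 lower (median 0.06, and 3 higher and 1 lower with averaged tumors). Over all genes tested 31.6% were higher and 31% lower, with a median of 0.03, so the endothelial list did not stand out. Apln (5.67) and Esm1 (3.89), genes of sprouting vessels, and Emcn (2.24) were higher. Esm1 stood at 515, 358, 358 and 422 in the day 6 tumors, against 34.4, 20.4 and 27.1 in the FAH livers, with no overlap. The sinusoidal marker Clec4g (-1.09) and the Wnt ligand Wnt9b (-1.22), made by central vein cells, were lower, both calls being lost with averaged tumors. Of 14 red blood cell precursor genes 9 were higher and 2 lower (median 0.93, and 5 higher and 1 lower with averaged tumors). Hbb-bt (3.16) belongs to a globin cluster that differs between strains.

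**Figure D3:**
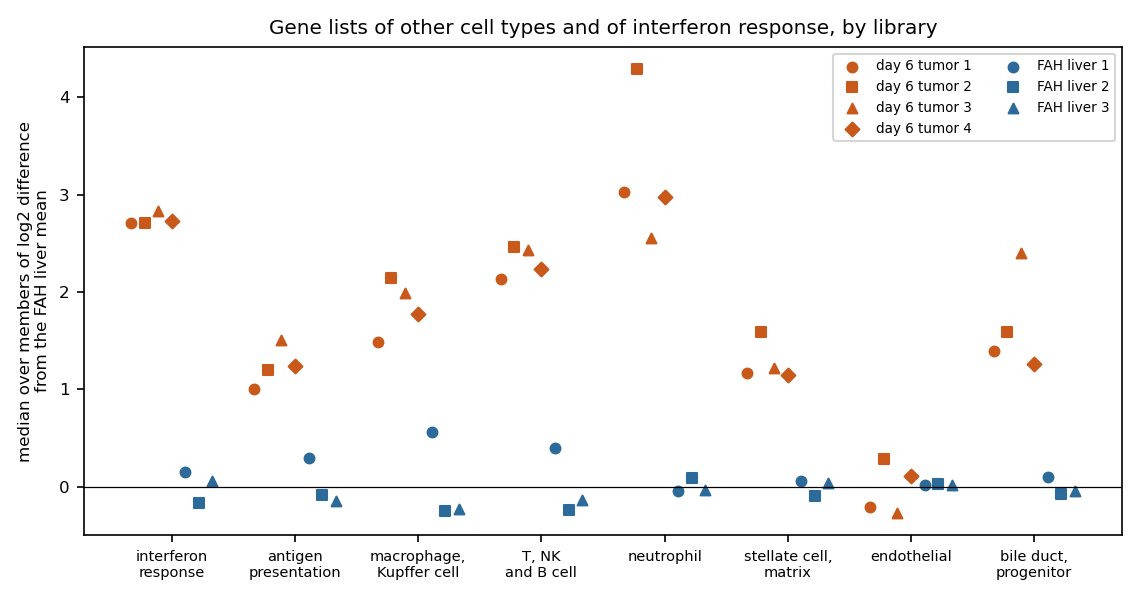
Median over the members of 8 gene lists of the log2 difference from the FAH liver mean, with 1 symbol per library (4 day 6 tumors in orange, 3 FAH livers in blue). Tumors lie above livers in 7 lists and overlap them in the endothelial list; tumor 2 is highest for neutrophil markers (4.29) and tumor 3 for bile duct and progenitor genes (2.40).

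Hepatocyte markers were present in both groups. The summed abundance of 8 hepatocyte markers was 679500 to 824800 in the tumors and 1175000 to 1487000 in FAH liver, none of the 8 was called higher and 3 were lower. None of the markers used to check cell types was at 0 in all 7 libraries. Bile duct markers summed to 2588 to 7524 in the tumors and 656 to 733 in FAH liver, and endothelial markers to 5269 to 7713 in the tumors and 6855 to 6957 in FAH liver. Of the 6 bile duct markers 3 were called higher and 0 lower, and the keratins Krt7 and Krt19 were among those not called. Macrophage markers summed to 8410 to 13330 in the tumors and 3674 to 6728 in FAH liver, and neutrophil markers to 565 to 1745 in the tumors and 87.7 to 119.6 in FAH liver. The sums of red cell markers were 19300 to 51460 in the tumors, highest in tumor 4, and 9016 to 16370 in FAH liver. The libraries named FAH +NTBC hepatocyte held endothelial, Kupffer cell and stellate cell markers. The part of other cell types in the differences above was not tested.

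Many of the largest differences lay in genes that male and female mouse livers express at different levels. Ddx3y, on the Y chromosome, stood at 18.8, 16.7, 11.8 and 18.8 in the day 6 tumors, against 3494, 2289 and 2421 in the FAH livers, and the Y-linked Uty at 75.1, 71.2, 81.5 and 79.5 in the day 6 tumors, against 974, 878 and 1068 in the FAH livers. All 4 Y-linked genes tested were lower in the tumors; the YAP1on tumors averaged 22.4 for Ddx3y and hbHep 2066. Of 25 female-biased liver genes 21 were higher and 3 lower (median log2 fold change 4.48, and 18 higher and 2 lower with averaged tumors), and of 23 male-biased genes 1 was higher and 21 were lower (median -4.14, and 1 higher and 18 lower with averaged tumors). Cyp3a16, a steroid hydroxylase, stood at 15570, 20630, 10380 and 18130 in the day 6 tumors, against 9.63, 8.75 and 12.2 in the FAH livers (log2 fold change 10.46, SE 0.25, adjusted p = 2.04e-13). Cyp4a12a, a hydroxylase of arachidonic acid under androgen control, stood at 1.56, 2.201, 2.63 and 2.71 in the day 6 tumors, against 30930, 28540 and 26920 in the FAH livers (log2 fold change -13.12, SE 0.35, adjusted p = 6.14e-13). All 21 major urinary protein genes tested were lower (median -5.78, and 0 higher and 17 lower with averaged tumors), and Mup family members together took 12070 to 35810 in the tumors against 2076000 to 3698000 in FAH liver. The YAP1on tumors averaged 569 for Cyp3a16 and 8.09 for Cyp4a12a. Sex, strain, mouse and tumor state change together here and cannot be told apart. Single values within the Cyp3a, Cyp4a12 and Mup families are uncertain, since kallisto shares reads of similar transcripts by estimation.

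Female-biased genes also made up much of the top of the ranking. The 12 highest named genes held Cyp3a41b, Cyp2b9, Cyp3a16, Cyp2c69, Cyp3a44, Cyp3a41a, Slc22a26 and Sult2a2, along with Gvin1, a large interferon-inducible GTPase, the histone gene Hist1h4m and the immunoglobulin segments Ighv3-6 and Igkv12-41. Gvin1 stood at 6036, 7362, 6619 and 6092 in the day 6 tumors and was listed at 0 in each FAH liver, with means of 1848 in YAP1on tumors and 8.14 in hbHep. The 12 lowest held Mup17, Mup7, Mup1, Mup12, Cyp4a12a, Cyp4a12b and Gsta1. The others were Eno1b, Rps3a2, Rps3a3, Hist1h2al and Trhde. Eno1b stood at 7.43, 5.56, 9.34 and 7.42 in the day 6 tumors, against 9070, 7469 and 9641 in the FAH livers, with means of 10.96 in YAP1on tumors and 7575 in hbHep. For Gvin1, Eno1b, Rps3a2 and Hist1h4m both tumor groups stood on one side, and both groups with the FAH Delta Exon 5 genotype on the other. The same split was seen in Rpl3, a ribosomal protein gene with many processed copies, at 4838, 4473, 4796 and 5270 in the day 6 tumors, against 572, 394 and 461 in the FAH livers, with 8525 in YAP1on tumors and 369 in hbHep. Most other ribosomal protein genes were lower or not called (15 and 9 of 26, median -0.65, and 2 higher and 8 lower with averaged tumors).

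Of 13 genes encoded by mitochondrial DNA 9 were higher and none lower (median 1.45, and 8 higher and 0 lower with averaged tumors), and they took 7.23 to 8.4% of the signal in the tumors against 3.56 to 3.84% in FAH liver. The gap was smaller in the rescaled abundance of the 13 genes, which summed to 1541000 to 1847000 in the tumors and 1201000 to 1533000 in FAH liver. mt-Nd4l, a subunit of complex I, stood at 43570, 44890, 45930 and 52580 in the day 6 tumors, against 1119, 1799 and 1494 in the FAH livers, with 1207 in hbHep, and mt-Co1 (-0.84), a subunit of complex IV, was not called (0.74 and called higher under quantile normalization, and called lower with no trend). Genes of the circadian clock stood on both sides of liver: of 20 tested 4 were higher and 10 lower (median -0.74, and 0 higher and 4 lower with averaged tumors). Arntl, the activator BMAL1, stood at 917, 819.5, 1000 and 820.5 in the day 6 tumors, against 135, 135 and 96.6 in the FAH livers (log2 fold change 2.86, SE 0.55, adjusted p = 3.56e-04), and Dbp, an output gene driven by it, at 139, 190.3, 182 and 179 in the day 6 tumors, against 3955, 3256 and 2683 in the FAH livers (log2 fold change -4.24, SE 0.80, adjusted p = 2.87e-04). Both calls were lost with averaged tumors. The hour of tissue collection is not given in the labels.

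In the growth hormone and IGF axis 8 of 20 genes were higher and 5 lower (median 0.38, and 6 higher and 1 lower with averaged tumors). Among all genes tested 31.6% were higher and 31% lower. The receptor Ghr was lower, at 4925, 5482, 4089 and 5236 in the day 6 tumors, against 13400, 10900 and 10450 in the FAH livers (log2 fold change -1.23, SE 0.19, adjusted p = 3.89e-05), and its feedback inhibitor Socs2, a STAT5 target, was higher, at 934, 1065, 822 and 1002 in the day 6 tumors, against 308, 165 and 119 in the FAH livers (log2 fold change 2.38, SE 0.23, adjusted p = 4.46e-07). Igf1, the hormone that liver releases under growth hormone, overlapped between the groups with 14960, 15990, 12390 and 16040 in the day 6 tumors, against 17830, 14620 and 13710 in the FAH livers (log2 fold change -0.05, SE 0.21, adjusted p = 0.853), which became 0.74 and a call under quantile normalization. The YAP1on tumors averaged 4473. The binding proteins Igfbp1 (3.08) and Igfbp2 (-2.02) stood on opposite sides, the call of Igfbp2 being lost with averaged tumors.

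**Figure D4:**
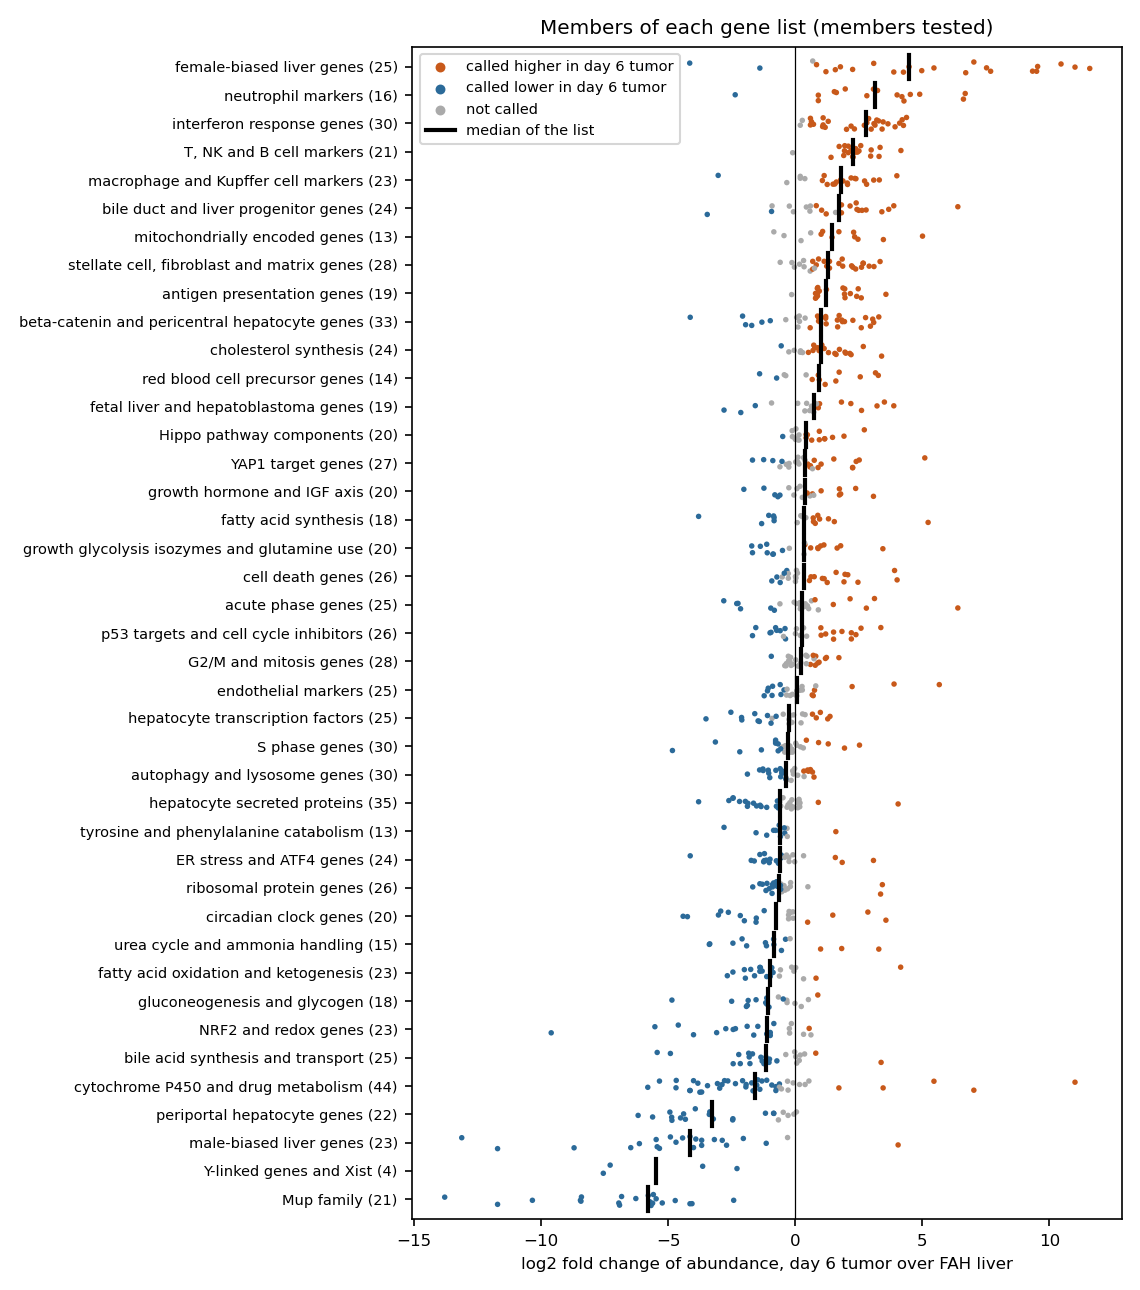
Log2 fold change (day 6 tumor over FAH liver) of each tested member of 41 gene lists, with the number tested in brackets. Orange points were called higher, blue points lower and gray points not called, and black bars are list medians, from -5.78 (Mup family) to 4.48 (female-biased liver genes).

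A small class of genes had crossed the level of liver. Overshoot was defined as called higher than FAH liver at day 6 and called lower than FAH liver in the YAP1on tumors, which held for 55 genes (0.306% of those tested); the mirror class, undershoot, held 45 (0.25%). Both contrasts use the same livers and the definition fixes the directions, so these are descriptions with no test. In 52 of the 55 every tumor exceeded every liver, and 13 of the 55 were at least 2-fold above liver. Among all 5686 genes called higher these counts were 5116 and 3556. The class is sensitive to how tumors are counted, with 4 overshooting and 8 undershooting genes once the tumors of each mouse were averaged. Without FAH liver 2 or FAH liver 3, 34 and 36 genes overshot.

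The leading overshooting gene was Cyp2g1 (chromosome 7, 26808927 to 26821197), a P450 enzyme, at 762, 678, 506 and 824 in the day 6 tumors, against 174, 106 and 119 in the FAH livers (log2 fold change 2.38, SE 0.32, adjusted p = 1.33e-05), and at 45.3 to 99.3 in the YAP1on tumors. Prlr (chromosome 15, 10177238 to 10349190), the prolactin receptor, stood at 4391, 5333, 3937 and 4615 in the day 6 tumors, against 1337, 1150 and 1620 in the FAH livers (log2 fold change 1.74, SE 0.15, adjusted p = 1.06e-07), and at 855 to 1139 in the YAP1on tumors. Tumor 3 was the lowest day 6 tumor in both genes and still lay above each liver. Cyp17a1, an enzyme of androgen synthesis, stood at 1127, 1324, 1018 and 1232 in the day 6 tumors, against 367, 368 and 439 in the FAH livers, and Ang, a secreted ribonuclease, at 19140, 17730, 18700 and 20520 in the day 6 tumors, against 8938, 6601 and 5704 in the FAH livers. Cyp17a1 is a member of the female-biased list, and the limit given there on sex and strain holds for every overshooting and undershooting gene. The amino acid carrier Slc16a10 (1.2), the plasma esterase Pon1 (0.92), the ammonium channel Rhbg (1.0), the phosphatase Phospho1 (0.92) and Lrit1 (2.11) overshot as well. With averaged tumors the calls against liver of Slc16a10, Pon1 and Phospho1 were lost, and that of Phospho1 also under quantile normalization and without FAH liver 2.

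Lipid synthesis supplied 8 of the 55. Among them were Sc5d, Msmo1 and Fdft1 of cholesterol synthesis and Fasn, Acacb, Elovl2 and Fads2 of fatty acid synthesis. Sc5d, a late desaturase of cholesterol synthesis, stood at 18910, 19330, 19550 and 20280 in the day 6 tumors, against 9719, 8596 and 8241 in the FAH livers (log2 fold change 1.14, SE 0.26, adjusted p = 0.00117), and the YAP1on tumors ranged over 3838 to 5712. The 3 groups did not overlap. Hmgcs1 and Sqle, with larger differences from liver, were not in the class, since the YAP1on tumors averaged 8966 and 3187, above FAH liver. Notum, a secreted inhibitor of Wnt and beta-catenin target, stood at 1354, 1611, 1385 and 1347 in the day 6 tumors, against 1188, 692 and 1026 in the FAH livers, and Stat5a (0.68), the transcription factor behind prolactin and growth hormone signals, was also in the class. With averaged tumors the calls against liver of all these lipid genes, of Notum and of Stat5a were lost, and those of Elovl2, Fads2, Fdft1 and Notum also without day 6 tumor 2 or without FAH liver 2, among others.

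Named undershooting genes included genes of DNA replication and mitosis. Knstrn (chromosome 2, 118813988 to 118837210), a kinetochore protein, stood at 27.1, 20.8, 16.1 and 37.96 in the day 6 tumors, against 148, 63.9 and 123 in the FAH livers (log2 fold change -2.07, SE 0.33, adjusted p = 6.13e-05), and at 170.4 to 283 in the YAP1on tumors. Spc25, another kinetochore subunit, stood at 73.5, 90.2, 50.3 and 60.5 in the day 6 tumors, against 208, 196 and 146 in the FAH livers (log2 fold change -1.42, SE 0.24, adjusted p = 1.12e-04). Mad2l1 (-0.8) and Cdc20 (-0.94) of the mitotic checkpoint, the replicative helicase subunit Mcm5 (-0.67) and the thymidylate synthase Tyms (-0.77) undershot too, as did the histone genes Hist1h2ah (-1.39) and Hist1h2bq (-1.08), which are near-identical copies with uncertain single values. AC133509.1, a clone-named gene, had the lowest log2 fold change of the named members (-3.05). Amotl2, described among the YAP1 targets, was the YAP1 target gene in this class. With averaged tumors the calls against liver of Cdc20, Mcm5 and Tyms were lost.

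**Figure D5:**
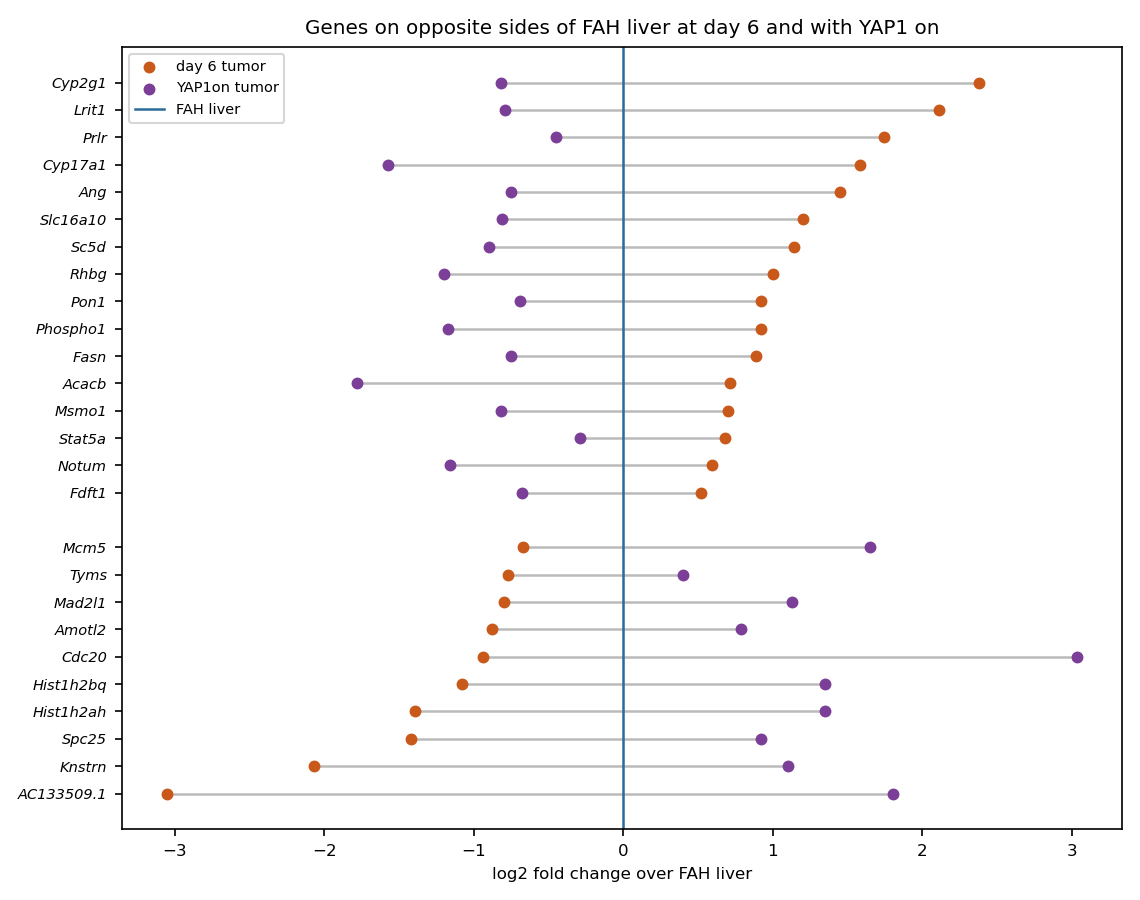
Log2 fold change over FAH liver (blue line at 0) of day 6 tumors (orange) and YAP1on tumors (purple) for 16 overshooting genes above and 10 undershooting genes below. Cyp2g1 lies at 2.38 at day 6 and -0.82 with YAP1 on, and Knstrn at -2.07 and 1.1.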

How the data were processed

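RNA was sequenced from 4 day 6 tumors, 3 FAH livers, 4 YAP1on tumors and 3 hbHep mice. Reads were split with bcl2fastq, quantified with kallisto 0.45.0 on GRCm38.p6 and brought to genes with sleuth, per the submitters' processing notes; no source used here gives the version of bcl2fastq, that of sleuth or the annotation release. The deposited gene values are a signal, read as the scaled reads per base of sleuth and already scaled between libraries by the authors. They are estimated and not whole: 35.5% came within 0.05 of whole reads, so no count test was run, and the number of reads behind a value is unknown. The chromatin accessibility intervals of the series, from other time points, were not used here.

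The 2 technical runs of each hbHep mouse were averaged. Libraries were brought to 1 scale by median-of-ratios factors, and log2(abundance + 1) was fitted with limma 3.58.1 in R 4.3.3, with empirical Bayes moderation and a trend, over the 14 samples of 4 groups. A gene was tested where at least 3 of these samples reached 10. Of 36555 genes, 35912 matched a symbol by identifier and 17978 were tested. Adjusted p-values follow Benjamini and Hochberg, with calls at 0.05. Yap1, Ctnnb1 and Fah also got an exact permutation test over the samples. The fit was tested on simulated data. No libraries held identical values.

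The members, gene lists and tests were chosen with earlier results of these data known. Genes were named by a rule: Yap1, Ctnnb1 and Fah, the 12 genes with the largest and the 12 with the smallest fold change among called genes without overlap that average at least 100, the 10 leading overshooting and 5 leading undershooting genes, cell type markers, and in each list up to 4 called members with the largest differences, up to 3 called against the majority, the most abundant and the first 3 listed. Cdh1, Ctsc, Fads2, Fdft1, Lgr5, Mad2l1, Mcm5, Msmo1, Notum, Pigr, Rnf43, Srebf2, Tbx3, Tcf7, Tyms and Znrf3 fall outside it and were chosen after their values were seen, as were the genes whose promoters are printed. Gene coordinates and promoter sequences are from RefSeq on GRCm38.p6. Numbers shared between tumors and livers do not pair them: deviations of same-numbered samples correlated at -0.031, -0.02 and -0.047. Alternatives tried were no rescaling, quantile normalization, upper quartile scaling, pseudocounts of 0.1 and 10, no filter and a filter at 100, only the groups compared, the tumors of each mouse averaged to 1 sample, no trend, a replicate block, and leaving out each library. A few genes of the lists are not reported here by name.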

Additional observations from a re-analysis of the deposited data

Results flagged for a closer look

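Among the 4 day 6 tumors, 13 of the 234 named genes had 1 library far from the other 3, by Dixon's criterion for 4 samples (the gap to the nearest library over the range, on log2(abundance + 1)); chance alone flags about 1 in 20. Tumor 3 was the library apart in 6 of these, tumor 2 in 4, tumor 1 in 2 and tumor 4 in 1. Tumor 3 was high in Lcn2 at 5188 and in Cx3cr1 at 1029, and low in the P450 gene Cyp2c29 at 10390 and the uptake carrier Slco1a1 at 208.2. It was listed at 0 for Mup12 and at 0.8391 for Hist1h2al, where the other 3 tumors were listed at 0. Tumor 2 was high in Mcm5 at 174.5, Sesn2 at 538.3 and Notum at 1611, and low in the endothelial gene Emcn at 389.4. Tumor 1 was high in Pdk4 at 312.7 and low in Tnf at 25.6, and tumor 4 was high in Cd8b1 at 63.45. In every one of these genes each tumor, the library apart included, stayed on the same side of all 3 FAH livers.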

How the results depend on the processing

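Of the 5686 genes higher and 5570 lower in the day 6 tumors than in FAH liver, 2320 and 2809 were called with the tumors of each mouse averaged, and overshooting and undershooting genes numbered 4 and 8 in place of 55 and 45; averaging leaves 1 sample per tumor group, with the spread taken from the other mice. A filter at 100 gave 3774 higher genes, since fewer were tested, and quantile normalization 81 undershooting genes. With 1 library left out, 5213 to 5556 genes were higher and 4911 to 5516 lower, 34 to 51 overshot and 30 to 40 undershot, with 34 and 36 overshooting genes without FAH liver 2 and FAH liver 3 and 30 undershooting genes without FAH liver 2. Yap1 stayed between -0.19 and -0.06, Ctnnb1 between 2.24 and 2.34 and Fah between 1.53 and 1.68 (log2 fold change). With the replicate number as a block, 5281 genes were higher, 5248 lower, 41 overshot and 34 undershot. The numbers do not pair the samples. Of 209 other named genes that were called, 42 lost the call under at least 1 alternative, and 14 did so under one other than averaging. Quantile normalization turned B2m to 0.64, Cpt1a to 0.46, Ebp to 0.02, Igf1 to 0.74 and mt-Co1 to 0.74, and the medians of hepatocyte transcription factors to 0.16, secreted proteins to 0.27, tyrosine breakdown to 0.09, G2/M genes to -0.14 and autophagy genes to 0.05. The filter at 100 turned the glycolysis median to -0.23. The causes were not tested. A change of sign in a gene that was called in neither setting was not counted as a reversal. Estimated values without counts leave the depth behind low genes unknown.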
